A study of Mus musculus with 6 samples.

Results

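Eosinophils, basophils and mast cells are the granulocytes of type 2 immunity and allergy, and 9 genes that mark them were compared between spleens of NOD.B10 and BL/10 females. The genes were given by name as a list and were all found among the 47729 genes of the count table. They were Prg2, Epx, Siglecf, Mcpt8, Cpa3, Fcer1a, Ms4a2, Hdc and Gata2. All 9 were lower in the NOD.B10 libraries. Of these, 7 were down by 4.08-fold (Siglecf) to 11.4-fold (Epx), and the histamine-synthesizing enzyme gene Hdc and the transcription factor gene Gata2 by less than 2-fold (1.94-fold and 1.73-fold).

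NOD.B10 (NOD.B10Sn-H2b/J) is a strain that develops a disease like primary Sjögren's syndrome (pSS), and BL/10 (C57BL10/SnJ) is its healthy control. Spleens of 3 untreated females of each strain gave 1 library each, and the strains differ over much of the genome, so that a difference cannot be assigned to a locus. The labels of the libraries contradict each other. For all 6 libraries the title and strain field name the strain opposite to that in the description, in the column name and in the counting command. Groups here follow the column names, and each direction given here would turn around under the titles. Ifi202b, on which the grouping does not rest, had 838, 624 and 485 counts in the columns named NOD.B10 and 2, 0 and 0 counts in those named BL/10. The stated age is 26 weeks for all NOD.B10 libraries and BL/10 replicate 1, and 36 weeks for BL/10 replicates 2 and 3. The paper instead gives NOD.B10 females of 26 weeks and BL/10 controls matched for age, so the ages of these 2 libraries are not settled. Every fit below without these 2 libraries keeps BL/10 replicate 1 as the only library of its strain. Such a fit cannot tell age apart from that library, which also had the largest share of pancreas genes (given below).

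The total counts ran from 15662712 to 18298451 per library, and a count of 3, used as the floor of detection, was worth 0.163 to 0.201 CPM (counts scaled to library size). The floor covers counting error only. Counts were normalized by the trimmed mean of M values (TMM) and all CPM given are on that scale. Defining genes of spleen were present in all 6 libraries. The 5 B cell markers summed to between 2297 and 4045 CPM, and the 6 splenic macrophage markers to between 2164 and 3090 CPM. Acinar genes of the pancreas, an organ that lies against the spleen, took 1.41%, 0.204% and 0.0112% of all counts in BL/10 replicates 1, 2 and 3, and at most 0.00322% in NOD.B10 libraries. A fit without BL/10 replicates 1 and 2, added after the values were seen, kept only BL/10 replicate 3, which is labelled 36 weeks. All 9 genes were still lower in NOD.B10, by log2 fold changes from -3.65 (Epx) to -0.97 (Gata2). With 1 BL/10 library, strain cannot be told apart from that library or its labelled age. Because RNA of spleen tissue was measured, fewer cells of a type and less RNA per cell cannot be told apart.

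These lineages share parts of their machinery. Eosinophils store basic proteins in crystalloid granules, among them major basic protein (Prg2) and eosinophil peroxidase (Epx), and mouse eosinophils carry the sialic acid-binding lectin Siglec-F. Mast cells and basophils bind IgE through the high-affinity receptor FcεRI, store histamine and proteases, and release them when the receptor is crosslinked. GATA factors, which bind DNA at the core letters GATA, take part in the development of these cells. The spleen holds eosinophils and basophils in its red pulp, and is a site where blood cells are also made in adult mice.

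Sequences ahead of the start sites are shown for the IgE receptor chain genes and the mast cell protease gene, because the letters bound by GATA factors occur in them, and for Epx as an eosinophil gene without such a match. They are the 250 bases before the RefSeq start site on build GRCm38.p6, read 5′ to 3′ on the strand of the gene, with matches on either strand to AGATA or TGATA, each followed by A or G, in capitals.
Fcer1a, chr1:173227230-173227479, minus strand: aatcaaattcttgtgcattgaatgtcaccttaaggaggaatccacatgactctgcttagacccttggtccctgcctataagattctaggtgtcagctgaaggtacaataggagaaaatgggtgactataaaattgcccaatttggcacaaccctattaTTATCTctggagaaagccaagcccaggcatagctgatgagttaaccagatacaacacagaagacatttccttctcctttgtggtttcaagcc
Ms4a2, chr19:11623720-11623969, minus strand: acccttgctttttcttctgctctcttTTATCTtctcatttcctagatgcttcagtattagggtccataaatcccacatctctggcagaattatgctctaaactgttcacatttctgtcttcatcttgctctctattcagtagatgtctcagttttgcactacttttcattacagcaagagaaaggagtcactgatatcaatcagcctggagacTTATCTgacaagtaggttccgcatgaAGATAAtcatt
Cpa3, chr3:20242182-20242431, minus strand: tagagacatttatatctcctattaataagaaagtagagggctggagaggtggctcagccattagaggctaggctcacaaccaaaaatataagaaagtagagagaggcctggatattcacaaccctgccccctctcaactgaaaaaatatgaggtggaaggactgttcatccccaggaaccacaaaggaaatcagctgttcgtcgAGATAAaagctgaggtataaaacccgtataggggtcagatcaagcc
Epx, chr11:87875537-87875786, minus strand: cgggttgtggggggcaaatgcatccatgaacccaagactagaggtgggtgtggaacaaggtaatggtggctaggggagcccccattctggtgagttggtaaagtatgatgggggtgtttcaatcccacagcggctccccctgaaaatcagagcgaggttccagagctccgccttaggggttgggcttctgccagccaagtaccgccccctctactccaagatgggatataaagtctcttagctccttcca

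The RefSeq table held 8 of the 9 genes (Prg2 was the other). A match to the GATA words was found in 4 of the 8 genes, which were the 3 shown with capitals and Hdc. Among all 32851 windows of the same length, 26.5% held a match. Ms4a2 had 3 matches, of which the nearest began 11 bases before the start site, the match of Cpa3 began 46 bases before it, and that of Fcer1a 92 bases before it. The windows of Epx, Siglecf and Mcpt8 and both windows of Gata2 held none. A second search used TTNNGCAA, the letters of C/EBP factors, which act in eosinophil and basophil precursors, on both strands, and found it in the Fcer1a window only, against 9.56% of all windows. A match shows that the letters are there and nothing about binding.

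The strains were compared in edgeR by a quasi-likelihood fit over the 15330 genes that passed the filter on low counts, with p adjusted by Benjamini-Hochberg over all of them. Differences are given as log2FC, the log2 fold change of NOD.B10 against BL/10, with its standard error (SE). Of the 9 listed genes, all of which passed the filter, 9 had an adjusted p under 0.05 and 9 were lower in NOD.B10. Among all genes tested, 8.22% were called lower in NOD.B10 and 17.3% in either direction. The 3 libraries of NOD.B10 all lay below the 3 of BL/10 for each of the 9 genes, as they did for 17.5% of all genes tested (38% in either direction). The median log2FC was -2.17 over the 9 genes and 0.0006 over all tested genes. The exons of none of the 9 genes overlap those of another gene of the annotation.

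**Figure D1:**
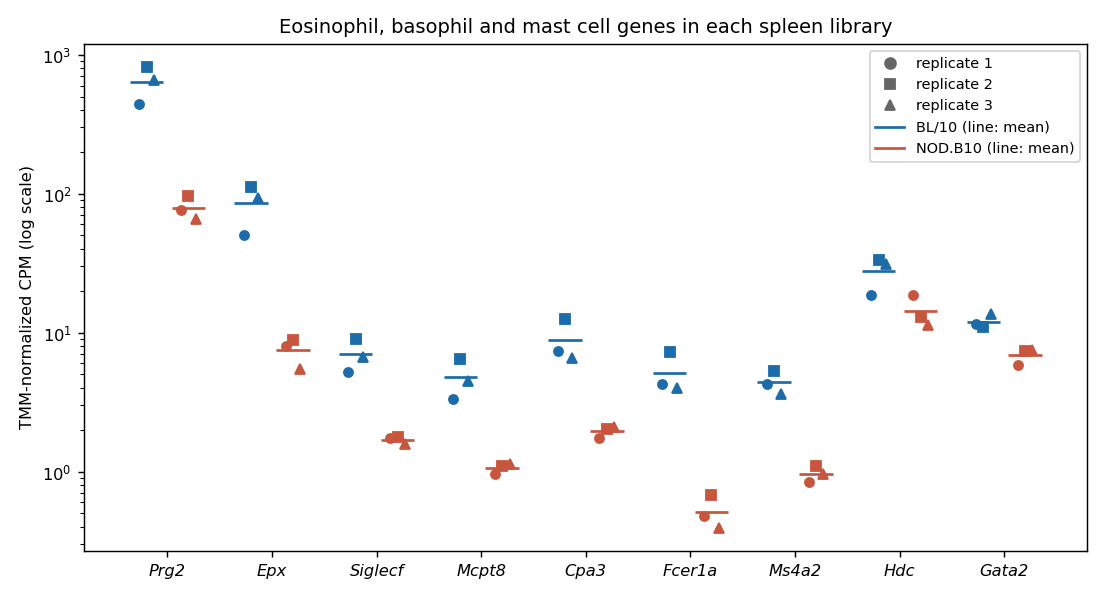
Level of each of the 9 genes (x axis) as TMM-normalized CPM on a log scale (y axis) in BL/10 (blue) and NOD.B10 (red) spleens, with a symbol per replicate and a line at the mean of 3 libraries. The BL/10 points lie above the NOD.B10 points for each gene, widely for Prg2, Epx and Fcer1a and with no gap for Hdc, whose nearest libraries had 18.6 CPM in BL/10 and 18.5 CPM in NOD.B10.

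The eosinophil granule genes Prg2 and Epx were both lower. Prg2 (ENSMUSG00000027073, chromosome 2 from 84980461 to 84983632 of GRCm38, plus strand) encodes major basic protein, the main component of the granule crystal. Its level was 439, 815 and 656 CPM in the BL/10 libraries (replicates 1, 2 and 3) and 75.8, 95.9 and 65.8 CPM in the NOD.B10 libraries. All BL/10 libraries were far above all NOD.B10 libraries, the lowest by 4.58-fold over the highest. The means were 637 ± 189 CPM (SD, n = 3) in BL/10 and 79.2 ± 15.3 CPM (SD, n = 3) in NOD.B10. The log2FC was -3.01, with an SE of 0.25 and an adjusted p of 0.000327 in edgeR.

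Epx (ENSMUSG00000052234, chromosome 11 from 87864000 to 87875536, minus strand) encodes eosinophil peroxidase, which forms oxidants from hydrogen peroxide and halides. It had 50.5, 111 and 93.2 CPM in BL/10 and 8.07, 8.91 and 5.51 CPM in NOD.B10. BL/10 replicate 1 had the lowest level of its strain, as it did for Prg2, and was still 5.67-fold above the highest NOD.B10 library. The log2FC was -3.50 (SE 0.32, adjusted p = 0.000501 in edgeR), the largest of the 9 genes. Siglecf (ENSMUSG00000039013, chromosome 7 from 43351341 to 43359531, plus strand), the surface lectin, had 5.21, 8.99 and 6.71 CPM in BL/10 and 1.73, 1.78 and 1.57 CPM in NOD.B10. Its NOD.B10 libraries lay close together, and its log2FC of -2.03 (SE 0.24, adjusted p = 0.00169 in edgeR) was smaller than that of the granule genes.

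Mcpt8 and Cpa3, protease genes of basophils and mast cells, were both lower. Mcpt8 (ENSMUSG00000022157, chromosome 14 from 56082166 to 56085216, minus strand) encodes a serine protease of basophil granules, and had 3.31, 6.50 and 4.49 CPM in BL/10 against 0.957, 1.11 and 1.12 CPM in NOD.B10. Cpa3 (ENSMUSG00000001865, chromosome 3 from 20215620 to 20242181, minus strand) encodes the carboxypeptidase of mast cell granules, which basophils also make, and had 7.33, 12.5 and 6.59 CPM in BL/10 against 1.73, 2.03 and 2.08 CPM in NOD.B10. For both genes BL/10 replicate 2 was the highest library and the nearest libraries of the strains were 2.95-fold (Mcpt8) and 3.17-fold (Cpa3) apart. Their log2FC values were -2.15 (SE 0.30, adjusted p = 0.00312) and -2.17 (SE 0.28, adjusted p = 0.00239) in edgeR.

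The genes of the IgE-binding and signal-amplifying chains of FcεRI, Fcer1a and Ms4a2, were both lower. Fcer1a (ENSMUSG00000005339, chromosome 1 from 173221284 to 173227214, minus strand) had 4.24, 7.24 and 3.98 CPM in BL/10 and 0.479, 0.676 and 0.393 CPM in NOD.B10. The NOD.B10 values rest on 8, 11 and 7 counts, above the floor in each library. Its log2FC of -3.30 (SE 0.35, adjusted p = 0.000964 in edgeR) was close to that of Epx. Ms4a2 (ENSMUSG00000024680, chromosome 19 from 11615523 to 11623719, minus strand) had 4.29, 5.30 and 3.64 CPM in BL/10 and 0.837, 1.11 and 0.955 CPM in NOD.B10, a log2FC of -2.18 (SE 0.24, adjusted p = 0.00103 in edgeR). The lowest BL/10 library for both chains and for Cpa3 was replicate 3, and for Prg2, Epx, Siglecf, Mcpt8 and Hdc it was replicate 1.

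Hdc and Gata2, which are also active in cells outside these lineages, differed least. Hdc (ENSMUSG00000027360, chromosome 2 from 126593667 to 126619299, minus strand) encodes histidine decarboxylase, the enzyme that makes histamine. It had 18.6, 33.2 and 31.4 CPM in BL/10 and 18.5, 13.0 and 11.3 CPM in NOD.B10, so that BL/10 replicate 1 and NOD.B10 replicate 1 were at the same level. Its log2FC was -0.95 (SE 0.26, adjusted p = 0.0417 in edgeR). The call was lost without NOD.B10 replicate 2 (adjusted p = 0.104 in edgeR), NOD.B10 replicate 3 (0.139), BL/10 replicate 2 (0.127) or BL/10 replicate 3 (0.113). With only the libraries labelled 26 weeks, where BL/10 replicate 1 stands alone for its strain, the log2FC of Hdc was -0.38. Gata2 (ENSMUSG00000015053, chromosome 6 from 88193891 to 88207032, plus strand), which encodes a transcription factor of mast cells, basophils and blood stem cells, had 11.6, 10.9 and 13.5 CPM in BL/10 and 5.86, 7.43 and 7.53 CPM in NOD.B10. Here BL/10 replicate 2 was the lowest of its strain, unlike for the other 8 genes. The log2FC of Gata2 was -0.79 (SE 0.15, adjusted p = 0.0121 in edgeR), and -0.74 without the libraries labelled 36 weeks, where it missed the threshold (adjusted p = 0.101).

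**Figure D2:**
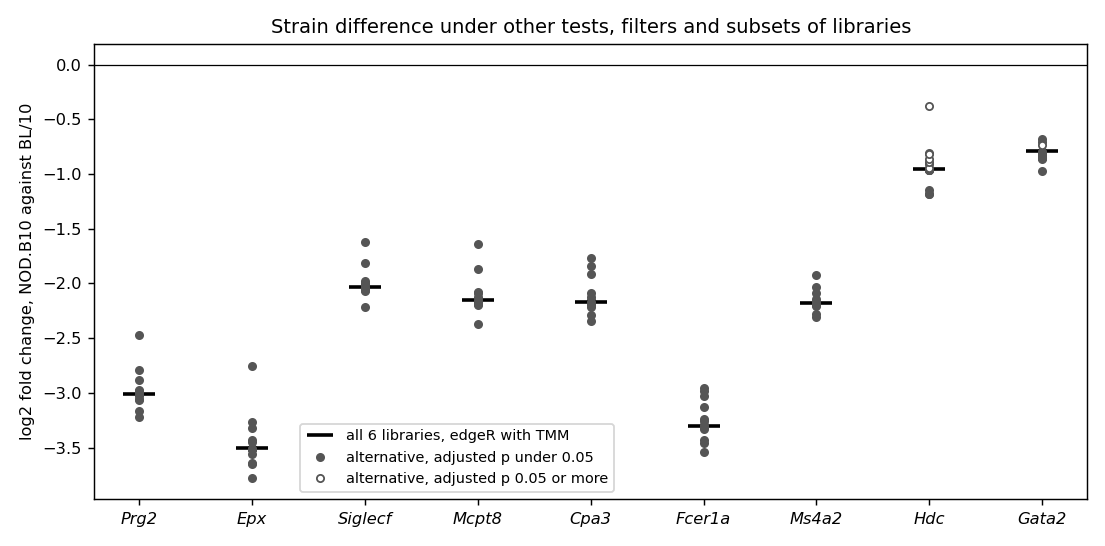
Log2 fold change of NOD.B10 against BL/10 (y axis) for each of the 9 genes (x axis), with a bar for all 6 libraries in edgeR and a circle for each other test, normalization, filter or subset of libraries (filled, adjusted p under 0.05; open, 0.05 or more). No circle reaches 0, and open circles are seen for Hdc and, in 1 case, Gata2.

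To compare levels between genes, CPM were divided by the exon length of each gene in kilobases (RPKM). In BL/10, Prg2 was first with 760 ± 225 RPKM (SD, n = 3), and Epx second with 31.1 ± 11.4 RPKM (SD, n = 3), and neither overlapped its neighbor in the order. Cpa3, Mcpt8, Fcer1a, Hdc, Siglecf and Gata2 followed with means from 5.80 down to 2.22 RPKM, and each of these overlapped the next up to Gata2. Ms4a2 did not overlap Gata2 and was last with 1.57 ± 0.297 RPKM (SD, n = 3). In NOD.B10 the order was Prg2 (94.5 RPKM), Epx (2.74 RPKM), Hdc, Gata2, Cpa3, Mcpt8, Siglecf, Fcer1a and Ms4a2 (0.343 RPKM), and the neighbors Epx and Hdc, Gata2 and Cpa3, Cpa3 and Mcpt8, and Siglecf and Fcer1a overlapped. By their means Fcer1a was 5 in the order of BL/10 and 8 in that of NOD.B10, and Gata2 was 8 and 4.

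Ratios of 2 genes within a library do not depend on the normalization between libraries, and 4 were computed for pairs chosen after the values were seen. The Fcer1a to Ms4a2 ratio of RPKM was 2.78, 3.85 and 3.08 in BL/10 and 1.61, 1.72 and 1.16 in NOD.B10. The libraries of the strains did not overlap, and the exact two-sided permutation test gave p = 0.1, the smallest that 3 libraries against 3 allow (adjusted p = 0.133 over the 4 pairs). The same permutation p was found for the Epx to Siglecf ratio, which was 9.86 to 14.2 in BL/10 and 3.57 to 5.10 in NOD.B10, and for the Prg2 to Epx ratio, which was 23.0 to 28.4 in BL/10 and 30.7 to 39.0 in NOD.B10. The Mcpt8 to Cpa3 ratio was 0.802 to 1.21 in BL/10 and 0.959 to 0.979 in NOD.B10. For this pair the strains overlapped and the log2 ratio differed by 0.01 (exact permutation p = 1).

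Other genes of these lineages were read from the same fit. Lists of 13 eosinophil, 10 basophil and 19 mast cell genes held 33 genes besides the 9, and 22 of the 33 passed the filter. Of these 22 genes, 11 were lower in NOD.B10 at an adjusted p under 0.05 in edgeR (8.22% of all genes tested were), and 11 were not called. Of the latter, Mitf alone had a value above 0. The median log2FC over the 22 genes was -1.12. The 11 genes that failed the filter had at most 12 counts in any library, among them the mast cell genes Mrgprb2, Mcpt1, Mcpt2 and Tpsab1.

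Among the eosinophil genes, the eosinophil-associated ribonuclease genes had the largest differences. Ear1 had 36.6, 78.5 and 48.0 CPM in BL/10 and 1.20, 2.09 and 1.18 CPM in NOD.B10, a log2FC of -5.19 (SE 0.37, adjusted p = 0.00015 in edgeR). Ear6 and Ear2 had log2FC values of -4.41 and -3.84. The Ear genes lie in a family of near-identical copies on chromosome 14, and reads that fit several copies were not counted. Their levels and strain differences are therefore uncertain. Reads of both strains were mapped to the same reference genome, and an effect of strain sequence on the mapping was not tested. Prg3, a paralog of Prg2 that encodes a second major basic protein, had 46.5, 65.7 and 52.7 CPM in BL/10 and 8.79, 10.1 and 7.81 CPM in NOD.B10 (log2FC -2.62, SE 0.16, adjusted p = 7.97e-05 in edgeR). Alox15, a lipoxygenase gene, and Cebpe, a transcription factor gene of the late granulocyte lineage, were lower by log2FC values of -2.92 and -2.39.

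A pair of receptor genes of eosinophils was not called with all 6 libraries in edgeR. Ccr3, the eotaxin receptor gene, had 86.8, 133 and 108 CPM in BL/10 and 90.6, 85.6 and 77.2 CPM in NOD.B10. The strains overlapped, and the log2FC was -0.37 (SE 0.15, adjusted p = 0.135 in edgeR). It was called lower without BL/10 replicate 1 (log2FC -0.52, adjusted p = 0.0189 in edgeR). Il5ra, the chain that binds the eosinophil growth factor IL-5, had 564, 248 and 238 counts in BL/10 and 184, 201 and 157 counts in NOD.B10. The strains did not overlap, and the log2FC of -0.92 (SE 0.30) missed the threshold (adjusted p = 0.0733 in edgeR). Il5ra was called lower with DESeq2 (adjusted p = 0.0185), with a filter of 1 count (0.0313), without BL/10 replicate 3 (0.0488) and without the libraries labelled 36 weeks (log2FC -1.52, adjusted p = 0.00623). BL/10 replicate 1, the lowest of its strain for Prg2 and Epx, was the highest for Il5ra. It was also the highest of its strain for the summed B cell markers (4045 CPM, against 2297 and 2411 CPM in replicates 2 and 3). The part of other cell types in the values of Il5ra was not tested.

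Among the basophil genes, Prss34, a protease gene, had 6.95, 12.5 and 8.35 CPM in BL/10 and 1.61, 3.01 and 1.41 CPM in NOD.B10, a log2FC of -2.20 (SE 0.34, adjusted p = 0.00472 in edgeR) close to that of Mcpt8. Cd200r3, an activating receptor gene, and Cyp11a1, a gene of steroid synthesis, were called lower on few counts (at most 32 in any library), with log2FC values of -1.74 and -1.32. The call of Cd200r3 was lost without NOD.B10 replicate 1 (adjusted p = 0.132 in edgeR), NOD.B10 replicate 2 (0.0705), BL/10 replicate 2 (0.0892) or BL/10 replicate 3 (0.0735). That of Cyp11a1 was lost without NOD.B10 replicate 2 (adjusted p = 0.078 in edgeR), NOD.B10 replicate 3 (0.0868), BL/10 replicate 2 (0.0761) or BL/10 replicate 3 (0.0944). Both were also lost without the libraries labelled 36 weeks (adjusted p = 0.176 and 0.256) and without BL/10 replicates 1 and 2 (0.164 and 0.092). Il3ra and Csf2rb2, receptor chain genes for IL-3, had log2FC values of -0.45 and -0.44 and missed the threshold (adjusted p = 0.0674 and 0.0671 in edgeR). Il3ra was called lower with limma-voom (adjusted p = 0.0422), and Csf2rb2 with DESeq2 (0.0482) and without BL/10 replicate 1 (0.0298).

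Among the mast cell genes, Mcpt4, a chymase gene of connective tissue mast cells, had 25, 55 and 59 counts in BL/10 and 7, 8 and 5 counts in NOD.B10 (log2FC -2.79, SE 0.47, adjusted p = 0.00702 in edgeR). Tpsb2, a tryptase gene, had 18, 33 and 47 counts in BL/10 and 10, 1 and 6 counts in NOD.B10 (log2FC -2.51, SE 0.60, adjusted p = 0.0271 in edgeR). Both were lower in every NOD.B10 library than in any BL/10 library. Mcpt4 was not called without the libraries labelled 36 weeks (adjusted p = 0.0813 in edgeR). The call of Tpsb2 was lost without NOD.B10 replicate 2 (adjusted p = 0.0564 in edgeR), NOD.B10 replicate 3 (0.0978), BL/10 replicate 2 (0.0761) or BL/10 replicate 3 (0.0834). Without the libraries labelled 36 weeks its log2FC was -1.53 (adjusted p = 0.323 in edgeR). Kit, the receptor gene for stem cell factor, had a mean of 47.0 ± 4.49 CPM (SD, n = 3) in BL/10 against 36.8 ± 4.02 CPM (SD, n = 3) in NOD.B10, a log2FC of -0.35 (SE 0.11, adjusted p = 0.0707 in edgeR). Kit was called lower with limma-voom (adjusted p = 0.0379) and without BL/10 replicate 1 (0.03). Hpgds, Rab27b and Mitf were not called either, with log2FC values of -0.23, -0.84 and 0.25. Rab27b had 71.15, 33.33 and 45.8 CPM in BL/10, where the summed megakaryocyte genes had 1470, 810.1 and 1189 CPM. The part of other cell types in the values of Rab27b was not tested. Rab27b was called lower with DESeq2 (adjusted p = 0.0237), with a filter of 1 count (0.0378), without BL/10 replicate 2 (0.046) and without the libraries labelled 36 weeks (log2FC -1.35, adjusted p = 0.0241).

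**Figure D3:**
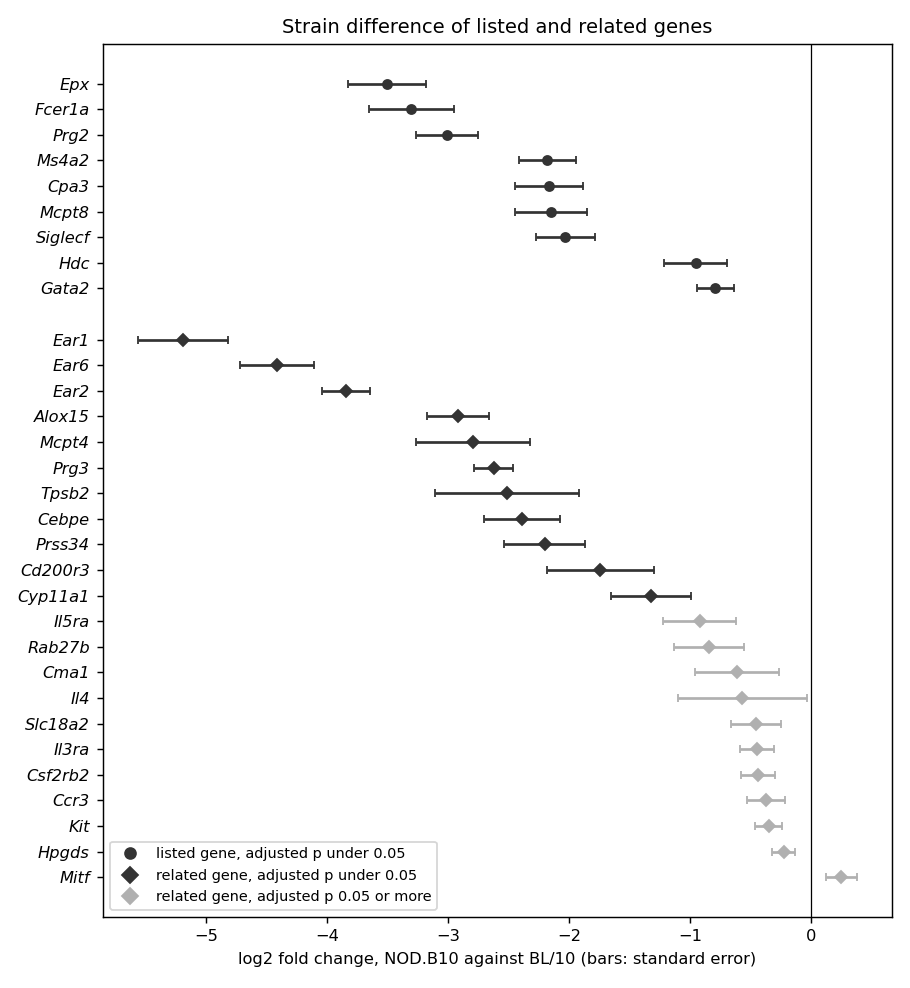
Log2 fold change of NOD.B10 against BL/10 (x axis; bars, standard error of the edgeR fit on 3 libraries a strain) for the 9 listed genes (circles) and the 22 related genes tested (diamonds), dark where the adjusted p was under 0.05. The largest differences are those of Ear1, Ear6 and Ear2, which are uncertain because reads that fit several copies were not counted. The listed genes run from Epx at -3.50 to Gata2 at -0.79, and Mitf is the only gene with a value above 0.

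The chymase locus on chromosome 14 holds Mcpt8 and its relatives, proteases of mast cells, neutrophils and cytotoxic cells. Of 15 genes of the locus, 5 passed the filter. Mcpt8, Mcpt4 and Ctsg were called lower (8.22% of all genes tested were) and Cma1 and Gzmb were not. Ctsg, the cathepsin G gene of neutrophil precursors, had 36.8, 116 and 58.2 CPM in BL/10 and 12.9, 19.9 and 21.8 CPM in NOD.B10 (log2FC -1.95, SE 0.41, adjusted p = 0.0169 in edgeR), and missed the threshold without NOD.B10 replicate 1 (adjusted p = 0.0709), NOD.B10 replicate 3 (0.056) or the libraries labelled 36 weeks (0.0784). Gzmb, the granzyme B gene, overlapped between the strains with a log2FC of -0.32.

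Of 16 genes of FcεRI and its signaling, 3 were called lower and 4 higher at an adjusted p under 0.05 in edgeR. Among all genes tested, 8.22% were called lower and 9.11% higher. The lower genes were Fcer1a, Ms4a2 and Fcer1g, which encode the chains of the receptor. Fcer1g, whose common γ chain is shared with other Fc receptors of myeloid cells, had 130, 160 and 168 CPM in BL/10 and 95.0, 76.8 and 79.1 CPM in NOD.B10 (log2FC -0.87, SE 0.13, adjusted p = 0.00446 in edgeR). The higher genes were Lat, Plcg1, Fyn and Inpp5d, signaling genes that T cells also use, with log2FC values of 1.19, 0.74, 0.55 and 0.37. The 5 T cell markers summed to between 426 and 549 CPM in NOD.B10 and between 225 and 282 CPM in BL/10. Their part in the values of the signaling genes was not tested. Without the libraries labelled 36 weeks, Fcer1g (adjusted p = 0.0544 in edgeR), Fyn (0.065) and Inpp5d (0.228) were not called. Inpp5d lost its call in 5 of the 6 fits that left out a library, with an adjusted p of up to 0.137 without NOD.B10 replicate 3. Syk, Ptpn6, Lyn and Plcg2 were not called, with log2FC values of 0.37, 0.10, 0.19 and 0.05. The heavy chain gene of IgE itself, Ighe, had 2.06, 5.43 and 1.31 CPM in BL/10 and 1.44, 0.798 and 1.52 CPM in NOD.B10, and the strains overlapped (log2FC -1.20, SE 0.54, adjusted p = 0.163 in edgeR). Fcer2a, the gene of the low-affinity IgE receptor of B cells, also overlapped (log2FC 0.56, adjusted p = 0.273 in edgeR). Without BL/10 replicate 1 it was called higher in NOD.B10 (log2FC 1.08).

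Of 11 genes for growth factors and chemokines of these cells, 6 passed the filter and 3 were called lower, against 8.22% of all genes tested. Ccl24 and Ccl11 encode eotaxins, the ligands of CCR3. Ccl24 had 6.63, 10.3 and 6.99 CPM in BL/10 and 1.85, 1.78 and 2.70 CPM in NOD.B10, and its lower level in NOD.B10 held in each fit without a library (adjusted p of at most 0.0183 in edgeR). Ccl11 had 20, 20 and 36 counts in BL/10 and 9, 7 and 13 counts in NOD.B10 (log2FC -1.38, SE 0.35, adjusted p = 0.0326 in edgeR), and its call was lost without NOD.B10 replicate 1 (adjusted p = 0.116), 2 (0.0908) or 3 (0.0636) and without BL/10 replicate 2 (0.0707) or 3 (0.0874). Without the libraries labelled 36 weeks its log2FC was -0.92 (adjusted p = 0.322 in edgeR). Kitl, the stem cell factor gene that sustains mast cells and blood stem cells, had 95.4, 90.9 and 89.0 CPM in BL/10 and 55.9, 58.6 and 42.9 CPM in NOD.B10 (log2FC -0.81, SE 0.12, adjusted p = 0.00474 in edgeR). Il33 and Tslp were not called. Il5, Il3 and Il25 had 0 counts in all 6 libraries, which allows up to 0.201 CPM in the shallowest.

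Of 12 receptor genes for such factors, 2 were called lower and 1 higher, against 8.22% and 9.11% of all genes tested. Csf2ra and Il1rl1 (the IL-33 receptor) had log2FC values of -0.39 and -1.06, and Il4ra 0.62. Il1rl1 overlapped between the strains, with 25.3 CPM in NOD.B10 replicate 2 and 24.9 CPM in BL/10 replicate 1. None of the 3 calls was stable when libraries were left out. Csf2ra and Il4ra were called in 1 of the 6 such fits (that without BL/10 replicate 1), with adjusted p of up to 0.135 (without NOD.B10 replicate 3) and 0.134 (without NOD.B10 replicate 1), and Il1rl1 in 2 of the 6 (up to 0.165, without NOD.B10 replicate 3). Csf2rb, the shared signaling chain gene, had 88.0 CPM in BL/10 and 89.0 CPM in NOD.B10.

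Of 10 tested genes for histamine and leukotriene handling, Hdc and Alox5 were called lower and the other 8 were not. Alox5, the 5-lipoxygenase gene, which neutrophils also express, had a log2FC of -1.70 (SE 0.18, adjusted p = 0.000972 in edgeR). Slc18a2, which loads histamine into granules, had 4.35, 4.43 and 5.63 CPM in BL/10 and 3.89, 3.87 and 2.75 CPM in NOD.B10. The strains did not overlap, but the log2FC of -0.46 (SE 0.21) did not reach the threshold (adjusted p = 0.163 in edgeR). Of 14 transcription factor genes of these lineages, Gata2 and Cebpe were called lower, against 8.22% of all genes tested. Gata1, which drives eosinophil as well as erythroid and megakaryocyte development, overlapped between the strains (log2FC -0.87, SE 0.27, adjusted p = 0.0641 in edgeR).

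Markers of other myeloid cells differed in both directions. Of 14 neutrophil genes, 12 were called lower and the receptor genes Cxcr2 (log2FC 0.58) and Csf3r (-0.01) were not called. The median log2FC of the list was -1.78, and the list summed to between 6332 and 13220 CPM in BL/10 and between 2280 and 2649 CPM in NOD.B10. Relative to the mean of BL/10, the sums in NOD.B10 were 0.220 to 0.255 for neutrophil, 0.153 to 0.195 for eosinophil, 0.505 to 0.587 for basophil and 0.627 to 0.703 for mast cell genes. The median log2FC was -2.92 for the eosinophil, -1.74 for the basophil and -0.79 for the mast cell genes. These lists include the 9 genes, so their sums and medians are not separate from them. In the eosinophil list Prg2 took the largest part of the sum, with a mean of 637 CPM in BL/10. In the basophil list Csf2rb2 and Il3ra, which were not called, took the largest parts of the sum, with means of 33.9 and 10.5 CPM in BL/10. In the mast cell list Rab27b, Kit and Hpgds, also not called, took the largest parts, with means of 50.1, 47.0 and 40.7 CPM in BL/10. Cpa3 and Mcpt4 had means of 8.80 and 2.80 CPM there. Of 6 red pulp macrophage genes, Cd163, Siglec1 and Vcam1 were called higher (log2FC 1.70, 0.52 and 0.39). Spic, Hmox1 and Adgre1 were not called (log2FC 0.68, -0.03 and -0.37). Adgre1 was lower in every NOD.B10 library than in any BL/10 library (adjusted p = 0.0777 in edgeR). The sums of this list overlapped between the strains, at 2164 to 2590 CPM in BL/10 and 2282 to 3090 CPM in NOD.B10. BL/10 replicate 1 had the lowest neutrophil sum of its strain (0.610 of the mean), as it had for the eosinophil list (0.716). The erythroid list overlapped between the strains, at 23250 to 51010 CPM in BL/10 and 22100 to 39670 CPM in NOD.B10. Of 9 megakaryocyte genes, Gp9 and Treml1 were called lower (log2FC -0.65 and -0.91), and of 7 progenitor genes, Myb was (log2FC -1.07). Among all genes tested, 8.22% were called lower. The part of these cell types in the values of Hdc, Gata2 and Cebpe, which they also express, was not tested.

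**Figure D4:**
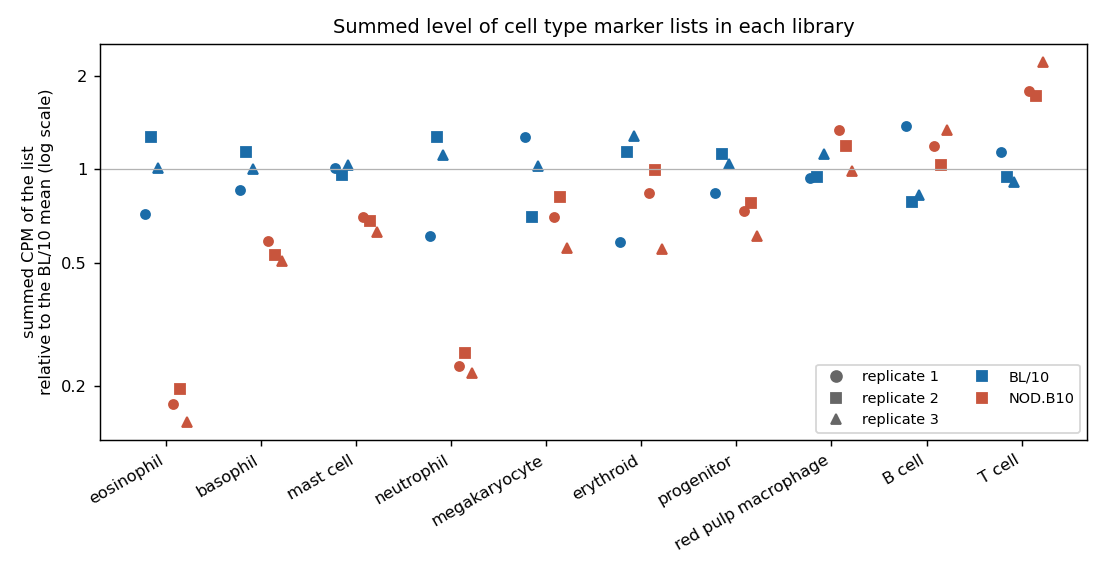
Summed CPM of each marker list (x axis) in each library relative to the mean of the BL/10 libraries (y axis, log scale), in BL/10 (blue) and NOD.B10 (red) with a symbol per replicate. NOD.B10 libraries lie lowest for the eosinophil (0.153 to 0.195) and neutrophil (0.220 to 0.255) lists and above BL/10 for the T cell list (1.72 to 2.22). The eosinophil list includes Prg2, Epx and Siglecf, and Prg2 takes the largest part of its sum.

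The genes with the pattern most like each of the 9 were looked up by Pearson's r of log2 CPM over the 6 libraries, among 14209 other genes with a mean of at least 1 CPM. For Prg2 they were Tspo2 and Ear6, for Epx Gm14198 and Gsr, for Siglecf Clgn and Gpr160, for Mcpt8 Gm49342 and Gzmm, for Cpa3 Dbi and Rtkn2, for Fcer1a Cuedc2 and 1700006J14Rik, for Ms4a2 Pmm1 and Tdg, for Hdc Csnk2b and Fes, and for Gata2 Gm10130 and Ank3. The values of r were 0.990 to 0.999. High values were common, since between 376 and 554 genes had an r over 0.95 with each of Prg2, Epx, Siglecf, Mcpt8, Cpa3, Fcer1a and Ms4a2, against 111 with Hdc and 90 with Gata2. All points share 6 libraries in 2 strains, so these values are a description.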

How the data were processed

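The deposited table holds unnormalized read counts per gene, made by the authors from spleens of NOD.B10 and BL/10 females, with 3 biological replicates a strain. Per the file headers, featureCounts version 1.5.1 was run on exons of Ensembl annotation 84 (GRCm38) without strand, and reads fitting several places were left out. The paper names Tophat2 as the aligner and the submitters' processing notes name HISAT2 version 2.0.5. The deposited table also gives the length of each gene. Of 47729 gene identifiers, symbols from GENCODE M21 were matched to 47224. Columns were assigned by library number and strain in the descriptions, a choice made with results of these data known. For BL/10 replicate 3 the rest of the name differs. Libraries of Myd88-deficient mice, listed in the counting command, were not analysed here.

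The tools were edgeR (version 4.0.16), DESeq2 (version 1.42.0) and limma (version 3.58.1) in R 4.3.3. Genes passing filterByExpr (15330) were normalized by TMM and tested in edgeR by quasi-likelihood, and a gene was called at a Benjamini-Hochberg adjusted p under 0.05. The SE is the size of the log2 fold change over the root of F. Libraries held 15662712 to 18298451 counts. Replicates differed beyond sampling noise (chi-square over its degrees of freedom 12.5 or more), so none was counted as a copy of another. Likeness used log2 of CPM plus 0.5. The fit was tested on simulated counts for NOD.B10 against BL/10, where 168 of 196 changed genes and 19 unchanged genes were called among 15140 genes run. The unchanged genes were a larger share of these calls than the 0.05 that the threshold aims at. The simulation changed a far smaller share of genes than the 17.3% called in the data. Its error rate is therefore not that of the calls given here.

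The 9 genes and the other gene lists were chosen with earlier results of these data known. Genes named were the 9, those called in the eosinophil, basophil, mast cell, IgE, growth factor and receptor lists, up to 4 others per list with the highest CPM, and for each of the 9 the 2 most similar genes. Other genes named were chosen after their values were seen. Alternatives were DESeq2, limma-voom with quality weights, RLE size factors, leaving out hemoglobin, immunoglobulin and pancreas acinar genes, a filter of 1 count or of 10 counts in every sample, a replicate block, an adjusted p under 0.01, leaving out the libraries labelled 36 weeks or each replicate in turn, and, added after the values were seen, leaving out BL/10 replicates 1 and 2. Fits with 1 library in a strain assume that it varies like those of the other strain.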

Additional observations from a re-analysis of the deposited data

How the results depend on the processing

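Of the 9 genes, between 7 and 9 were past the threshold under the alternatives, 9 with DESeq2 and limma-voom and 7 without the libraries labelled 36 weeks or at an adjusted p under 0.01, and the fits that each left out a replicate gave 8 to 9. All 9 kept their direction in each alternative that gave them a value. A minimum of 10 counts in every sample left out Fcer1a. Hdc missed the threshold in 6 alternatives and Gata2 in 1. Without the libraries labelled 36 weeks, Epx had a log2 fold change of -2.75 and Prg2 of -2.47. The number of related genes called fell from 11 to 7 when all samples had to reach 10 counts, a filter that leaves out genes near 0 in NOD.B10, and was 8 to 14 in the other alternatives, including the fits without a replicate (8 to 14). The replicate numbers did not pair the samples (correlation of deviations 0.05, 0.25 and -0.08 for numbers 1, 2 and 3), and not every sample correlated best with its own number. With the replicate block, 8 of the 9 genes and 10 related genes were called, and Hdc was not (adjusted p = 0.0791 in edgeR). Among related genes the block did not call Cd200r3, Cyp11a1 and Tpsb2 (adjusted p = 0.0538, 0.0602 and 0.051) and called Il5ra and Kit (0.0478 and 0.0469). Over all genes the block gave 2889 calls against 2656.

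Genes that were not called changed sign in some fits. Without the libraries labelled 36 weeks the log2 fold change was 0.79 for Il4, -0.092 for Ptpn6, -0.15 for Plcg2, -0.13 for Fcer2a and -0.031 for Il33. In the fits that each left out a replicate, it ran from -0.032 to 0.15 for Plcg2, from -0.12 to 0.15 for Csf2rb and from -0.066 to 0.12 for Il13ra1. Without BL/10 replicates 1 and 2, Csf2rb was -0.12 and Il13ra1 -0.14. The cause was not tested. Of the 19 mast cell genes, 8 had at most 12 counts in any library and were not tested.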
